A study of Mus musculus with 4 samples.

Results

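The proteasome is the barrel-shaped protease that degrades ubiquitin-tagged proteins, and its subunit genes were taken here as every probe set whose single gene symbol starts with Psma, Psmb, Psmc, Psmd, Psme or Psmf and a digit. This rule, which uses no measured value, found 80 of 22690 probe sets, for 44 of the 12394 genes named on the array. Of these genes 42 encode subunits, chaperones or regulators of the proteasome. The other 2, Psmc3ip and Psme3ip1, carry the name of a subunit their products bind and are no subunits. In 43 of the 44 genes at least 1 array reached the floor, a signal of 168.1, the median of all values of the 4 arrays. The exception was Psma8, the alpha subunit of the testis, with signals of 19.6 (gland) and 43.0 (tumor) in wild-type mice and 14.9 (gland) and 17.6 (tumor) in knockout mice. The label of the gene set is borne out in so far as every alpha, beta, ATPase and lid subunit of somatic cells reached that floor on at least 1 array.

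The 4 groups were mammary gland and mammary tumor of Sca-1 knockout mice and of their wild-type littermates. Sca-1 (stem cell antigen-1) is a surface protein used to mark stem and progenitor cells. All mice were female and nulliparous, on a C57BL/6 background, and were kept on standard chow. The glands were taken at 6 weeks of age, and the labels give no age for the mice with tumors. The tumors were induced with 15 mg MP (Depo-Provera, a depot progestin) under the skin and then 4 weekly doses of 1 mg DMBA, a polycyclic hydrocarbon carcinogen, by gavage. The labels attach this protocol to every sample, but the groups' own labels name the treatment only for the tumors. Each group was 1 pool of RNA from 5 mice on 1 array. No group had a replicate, no test between groups was made, and each difference below is a difference between 2 arrays whose spread between mice is unknown.

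In the proteasome a core particle of stacked alpha and beta rings (20S in the plots) holds the proteolytic sites. The alpha rings gate the entry, and 3 of the beta subunits cut. A regulatory particle (19S) binds ubiquitin chains, removes them and unfolds the substrate with a ring of ATPases. In cells of the immune system, and in other cells under interferon-gamma, the catalytic subunits Psmb5, Psmb6 and Psmb7 are replaced in new particles by Psmb8, Psmb9 and Psmb10. The resulting immunoproteasome, often capped by the activator of Psme1 and Psme2, makes peptides that suit MHC class I molecules. The mammary gland before pregnancy is a thin epithelial tree in a fat pad with resident leukocytes.

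Values are the deposited linear signals, and a difference is one of log2(signal + 27.3), the offset being the lower quartile of all values. A gene is represented by its brightest probe set, and signals of different genes are not compared with each other. Where a pair of values is given for gland, for tumor or for tumor against gland, wild type comes first and knockout second. Genes are counted past 1.5-fold, because subunits of 1 complex can differ by small amounts, and past 2-fold. The arrays differed in markers of tissue makeup and in the ratio of 3' to 5' control signals. Summed signals of 7 skeletal muscle markers were 42649.9 and 41385 in gland and 244 and 691 in tumor. The 4 measured adipocyte markers summed to 29319 and 28157 in the glands and to 4962 and 3545 in the tumors, and the 7 epithelial markers to 25604 and 21527 in the glands and 45329 and 51081 in the tumors. The 5 measured markers of dividing cells summed to 481 and 1049 in the glands and to 2009.5 and 4572 in the tumors. The ratio of 3' to 5' control signal of Actb was 2.35 and 1.61 in the glands and 1.23 and 1.29 in the tumors, and that of Gapdh was 1.72 and 0.988 in the glands and 0.768 and 0.876 in the tumors. The part of these shifts in the results below was not tested. In such whole-tissue RNA, fewer cells of a type and less RNA per cell cannot be told apart.

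Most proteasome genes had a higher signal in the tumors than in the glands, and the immune subunits Psmb8 and Psmb9 stood among those with the widest gaps. In wild-type mice 36 of the 43 genes were higher in the tumor, where 48.2% of all 8287 genes above the floor were. Their median difference was 0.44, against -0.03 over all genes. In the knockout 40 of 43 were higher, where 48.3% of all genes were, with a median of 0.56 against -0.04. Past 1.5-fold, 15 genes (34.9%) were higher in the wild-type tumor, where 23.6% of all genes were. In the knockout 21 genes (48.8%) were higher, where 23.4% of all genes were. Only Psmb7 was lower past 1.5-fold among the 43 genes, in both genotypes, where 27.4% of all genes in wild type and 28.7% in knockout were. Past 2-fold, 5 were higher and 1 lower in wild type (13.1% and 16.7% of all genes) and 4 higher and 1 lower in knockout (12.6% and 18.0%). Among the higher genes in both genotypes was Psmc3ip, which is no subunit and reached the floor only on the knockout tumor array. The 2 tumor-against-gland comparisons share no array.

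The genotype differences were small. In the gland 29 of 43 genes were lower and 14 higher in the knockout, where 52.2% of all genes were higher. The proteasome median was -0.08, beside 0.01 over all genes. No proteasome gene reached 1.5-fold either way, where 5.84% of all genes were higher and 1.29% lower (1.12% and 0.253% past 2-fold). In the tumor 25 were higher and 18 lower in the knockout, with a median of 0.03 beside 0.01, and 51.8% of all genes were higher. Here too none reached 1.5-fold by its brightest probe set, where 6.71% of all genes were higher and 5.37% lower (2.14% and 1.93% past 2-fold). Dividing each array by its own median, after which the median of all genes was -0.21 in the gland comparison and 0.31 in the knockout tumor against gland (0.01 and -0.04 as deposited), gave a median of -0.31 over the proteasome genes in the gland comparison, with 3 of them lower past 1.5-fold. With that scaling 35 were higher past 1.5-fold in the knockout tumor against gland, in place of 21.

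**Figure D1:**
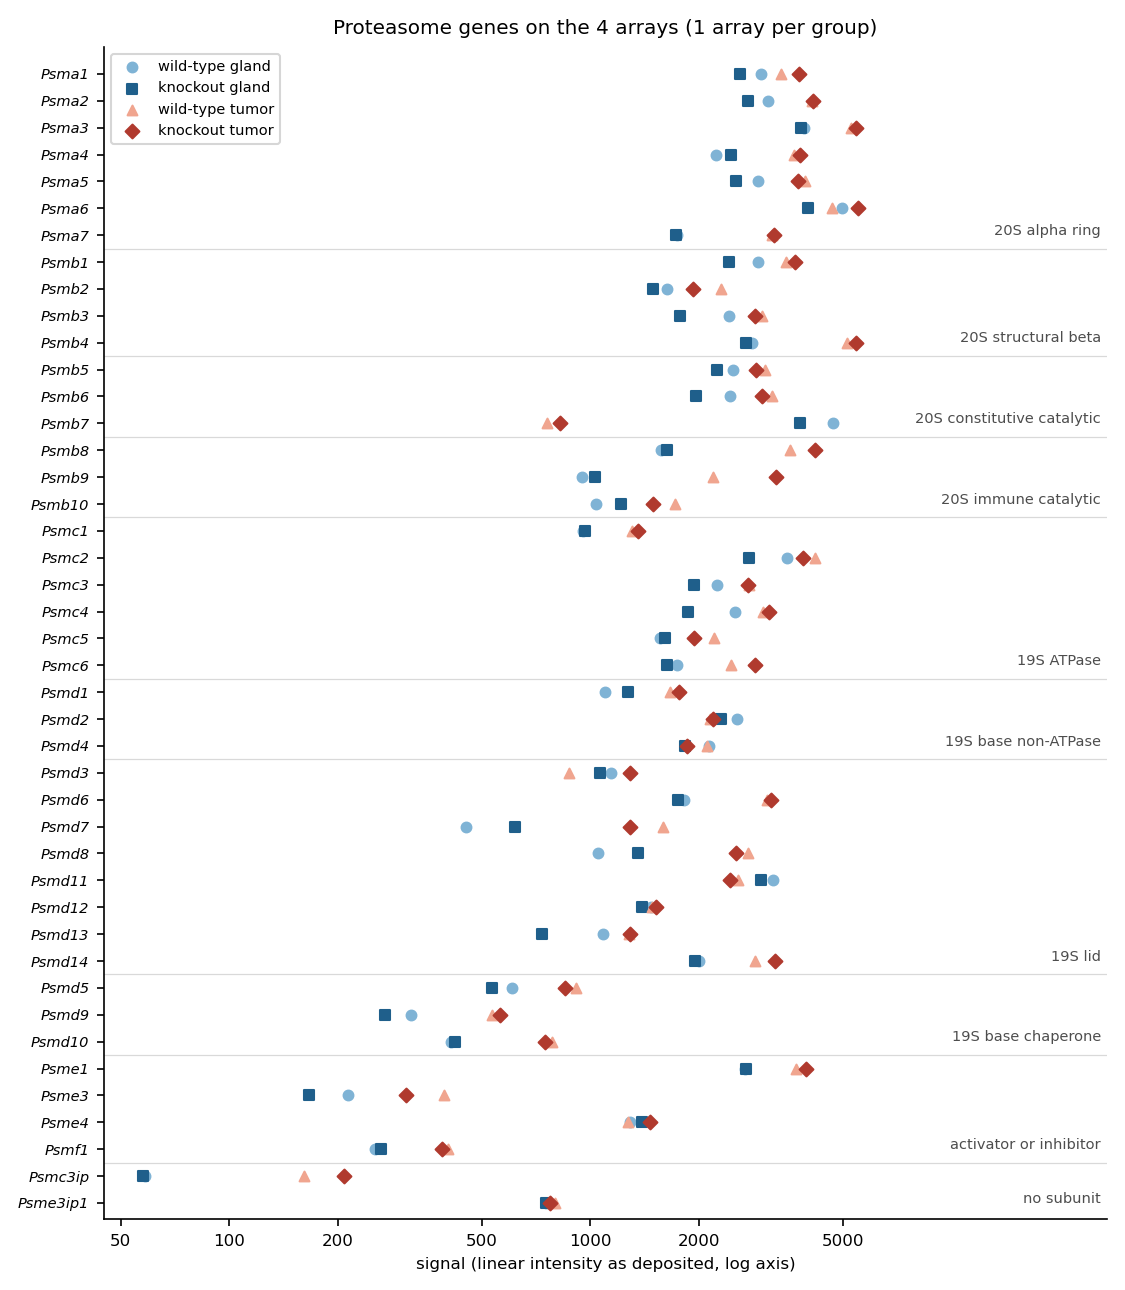
Signal of 43 proteasome genes on the 4 arrays, on a log axis, with 1 point per array, grouped by role (20S is the core particle, 19S the regulatory particle). Psmb7 is the gene whose 2 tumor signals, 760.0 and 822, lie far below its gland signals, and Psmb8 and Psmb9 are among those whose tumor signals lie far above them.

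The immune catalytic subunits were higher in tumor than in gland in both genotypes. Psmb8, the inducible counterpart of the chymotrypsin-like subunit Psmb5, had signals of 1566 (gland) and 3583 (tumor) in wild-type mice and 1629.5 (gland) and 4182 (tumor) in knockout mice. Both tumor arrays were above both gland arrays, by 1.18 in wild type (2.27-fold) and 1.35 in knockout (2.54-fold). Of all 8287 genes 846 had a larger positive difference than Psmb8 in wild type, and 659 in the knockout. Psmb9, the counterpart of the caspase-like subunit Psmb6, gave 949 and 1028 in gland and 2182 and 3268 in tumor. Its tumor signals again lay above its gland signals, 2.26-fold in wild type and 3.12-fold in knockout (1.18 and 1.64), with 852 and 469 genes further up. Psmb10, the counterpart of the trypsin-like subunit Psmb7, was measured at 1036 and 1217 in gland and 1715 and 1495 in tumor. It was higher in tumor by 0.71 in wild type and by 0.29 in the knockout, so it passed 1.5-fold in wild type alone. Whether the 2 genotypes differed in this could not be tested.

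By the brightest probe sets, Psmb9 was also the proteasome gene with the largest positive genotype difference in tumor. Its signal in the knockout tumor was 1.49 times that in the wild-type tumor, a difference of 0.58 that falls just short of 1.5-fold. A second probe set of Psme4, almost as bright as its brightest, gave 0.70 there, past 1.5-fold. Psmb8 differed by 0.22 in the same direction, and Psmb10 differed in the other, at -0.19. In the gland all 3 immune subunits were slightly higher in the knockout, by 0.06, 0.11 and 0.23 for Psmb8, Psmb9 and Psmb10. Those gland values are no larger than the 0.23 by which 2 probe sets of 1 gene typically disagreed in that comparison over 2375 genes, and those of Psmb8 and Psmb9 became -0.17 and -0.11 when arrays were centred on a common median. In the tumor comparison the same disagreement was 0.17. Psmb8, Psmb9 and Psmb10 each had a single probe set, so none of them can be checked against another. The probe set of Psmb8, and that of Psmb5, is of a type whose name marks probes shared by several transcripts, which can be of the same gene.

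The constitutive catalytic subunits differed less between tumor and gland, with 1 exception. Psmb5 read 2492 (gland) and 3041 (tumor) in wild-type mice and 2241 (gland) and 2879.9 (tumor) in knockout mice. Its tumor signals were above its gland signals by 0.28 in wild type and 0.36 in knockout. Psmb6 read 2442 and 1958 in gland and 3184 and 2996 in tumor, with differences of 0.38 and 0.61, the latter just past 1.5-fold (1.52). Psmb7 went the other way. Its signals were 4706 (gland) and 760.0 (tumor) in wild-type mice and 3806 (gland) and 822 (tumor) in knockout mice, and both tumor arrays lay far below both gland arrays. The differences were -2.59 in wild type (6.01-fold lower) and -2.17 in knockout (4.51-fold lower). Of the 8287 genes 307 had a lower difference in wild type and 467 in knockout. The value comes from 1 probe set, and Psmb5 and Psmb6, which sit in the same ring, were not lower in the tumors. Between the genotypes Psmb5, Psmb6 and Psmb7 were lower in the knockout gland, with differences of -0.15, -0.31 and -0.30, and in the tumor their differences were -0.08, -0.09 and 0.11.

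Set against its constitutive counterpart, each immune subunit gained in the tumor. The log2 difference of Psmb8 exceeded that of Psmb5 by 0.90 in wild type and 0.99 in knockout. For Psmb9 against Psmb6 the excess was 0.80 and 1.04. For Psmb10 against Psmb7 it was 3.30 and 2.47, most of which is the lower signal of Psmb7. These excesses compare changes and not levels, and a scaling of whole arrays cancels in them but for the offset. Between the genotypes the excess in the gland was 0.21, 0.43 and 0.53 for the 3 pairs in that order, all toward the immune subunit in the knockout. In the tumor it was 0.30, 0.66 and -0.30, so the third pair went the other way.

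**Figure D2:**
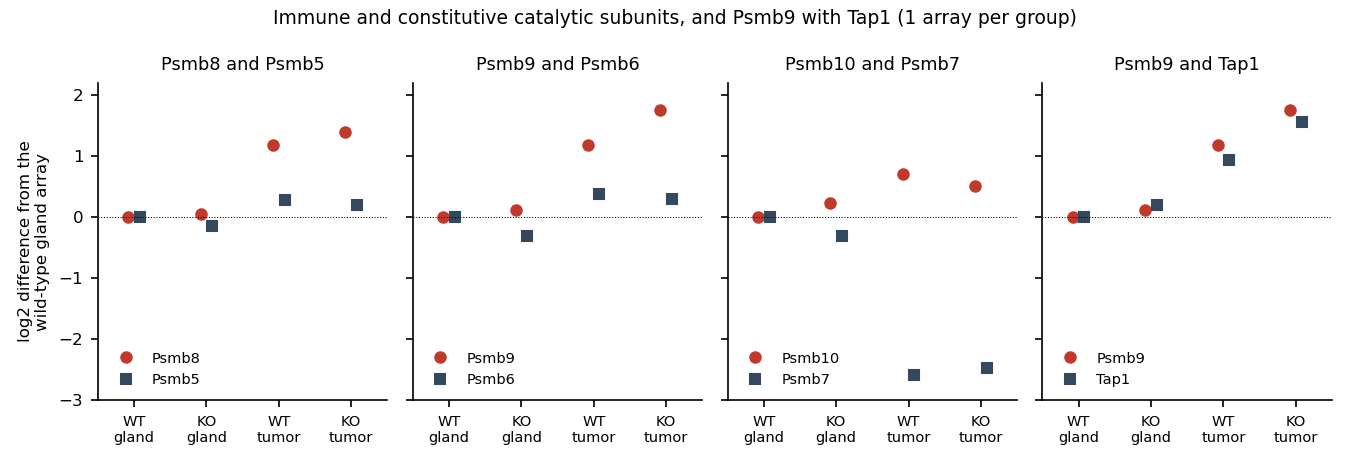
Difference of each array from the wild-type gland array, in log2(signal + 27.3), for the 3 immune subunits (circles) with their constitutive counterparts (squares) and for Psmb9 with Tap1; WT is wild type, KO is knockout and each point is 1 array. Psmb8 and Psmb9 lie above Psmb5 and Psmb6 on both tumor arrays, Psmb7 lies below -2 there, and Psmb8, Psmb9 and Tap1 keep the same order over the 4 arrays.

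Psmb8, Psmb9 and the peptide transporter gene Tap1 neighbour each other in the MHC region of chromosome 17. Psmb9 and Tap1 point away from each other there. Their start sites, at 34187330 on the minus strand and 34187556 on the plus strand, leave 225 bases between them, chr17:34187331-34187555, so 1 stretch of DNA lies upstream of both. Tap1 carries proteasome products into the endoplasmic reticulum. Its signals were 686 (gland) and 1339 (tumor) in wild-type mice and 791 (gland) and 2074 (tumor) in knockout mice, in the same order over the 4 arrays as those of Psmb9. That order was not particular to this pair. Psmb8, Psme1, Psma4 and the interferon response genes Cxcl10 and Oas1a had it too. Tap1 was higher in tumor by 0.94 in wild type and 1.36 in knockout. In the knockout tumor it was 1.54-fold higher than in the wild-type tumor (0.62), beside 1.49-fold for Psmb9.

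The promoters of the immune subunits Psmb9 and Psmb8 and of their constitutive counterparts Psmb5 and Psmb6 are shown because in both pairs the immune subunit exceeded its counterpart in tumor against gland. In the third pair Psmb10 exceeded Psmb7 too, but this pair is not shown. Psmb7 had no promoter entry, and the promoter window of Psmb10 held none of the 5 motifs. The sequences are the 250 bases before the RefSeq start site on GRCm38.p6, 5′ to 3′ on the gene's strand. They lie at chr17:34187331-34187580 (minus), chr17:34197945-34198194 (plus), chr14:54617996-54618245 (minus) and chr11:70525107-70525356 (plus). Capitals mark matches to the 5 motifs named after the sequences.
Psmb9: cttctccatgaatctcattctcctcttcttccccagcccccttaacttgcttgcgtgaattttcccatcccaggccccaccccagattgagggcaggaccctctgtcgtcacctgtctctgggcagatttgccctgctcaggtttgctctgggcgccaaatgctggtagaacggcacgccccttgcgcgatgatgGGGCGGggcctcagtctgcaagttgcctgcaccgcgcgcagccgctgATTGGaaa
Psmb8: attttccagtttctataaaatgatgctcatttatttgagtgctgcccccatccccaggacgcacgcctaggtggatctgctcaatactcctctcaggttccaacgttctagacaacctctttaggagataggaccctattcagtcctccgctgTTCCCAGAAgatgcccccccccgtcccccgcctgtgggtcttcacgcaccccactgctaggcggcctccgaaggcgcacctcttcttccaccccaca
Psmb5: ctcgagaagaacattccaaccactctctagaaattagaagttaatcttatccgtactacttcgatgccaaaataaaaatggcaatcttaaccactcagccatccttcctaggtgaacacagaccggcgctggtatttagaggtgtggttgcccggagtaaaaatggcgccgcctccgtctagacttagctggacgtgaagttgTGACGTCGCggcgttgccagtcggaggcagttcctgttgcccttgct
Psmb6: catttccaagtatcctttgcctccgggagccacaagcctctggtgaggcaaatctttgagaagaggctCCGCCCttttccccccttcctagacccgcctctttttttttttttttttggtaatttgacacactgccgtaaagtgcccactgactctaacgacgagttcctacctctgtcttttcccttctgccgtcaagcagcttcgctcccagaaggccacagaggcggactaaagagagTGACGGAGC

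The 5 motifs were searched on both strands in the 300 bases from 250 before to 50 after the start site, for the 37 of 44 members with an entry and for all 27025 genes of the RefSeq table. The core of the antioxidant response element, TGACNNNGC, which Nfe2l1 and Nfe2l2 can bind, was in 6 members (16.2%) and in 14% of all genes. Psmb5 holds it as TGACGTCGC from -47 to -39 and Psmb6 as TGACGGAGC from -9 to -1, counted from the start site. The gamma-activated site TTCNNNGAA was in 2 members (5.41%) and in 9.55% of all genes, and Psmb8 holds it as TTCCCAGAA from -97 to -89. The interferon-stimulated response element, searched as GAAA, any 2 bases and GAAA again, was in 4 members (10.8%) and in 3.99% of all genes. It was in none of the 3 matched immune catalytic genes, and in Psme1 it lay on the opposite strand just after the start site, from base 9 to 18. The CCAAT box was in 15 members (40.5%) and 41.1% of all genes. The GC box GGGCGG was in 22 members (59.5%) and 38.2% of all genes. Psmb9 holds a GC box from -55 to -50 and a CCAAT box on the opposite strand, read as ATTGG, from -8 to -4. No overlap between the motifs was removed. Such a match describes letters in a window and says nothing of binding, and a motif that was not found may lie elsewhere.

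The alpha ring, whose 7 somatic subunits form the outer rings and the gate, was higher in tumor by a median of 0.43 in wild type and 0.56 in knockout. Psma7 had the largest difference, with signals of 1742 and 1725 in gland and 3181 and 3221 in tumor. Its difference was 0.86 in wild type and 0.89 in knockout, and its 2 gland signals were almost equal, as were its 2 tumor signals. Psma4 followed in wild type with 2234 and 2450.2 in gland and 3675 and 3815 in tumor, a difference of 0.71 (0.63 in knockout). Psma4 was also the only alpha subunit higher in the knockout gland, by 0.13. By the brightest probe sets Psma6 had the smallest difference in both genotypes, -0.10 and 0.46. Its signals were 4987 (gland) and 4661 (tumor) in wild-type mice and 4006 (gland) and 5526 (tumor) in knockout mice, the lowest in the knockout gland and the highest in the knockout tumor. Its other 2 probe sets above the floor gave 0.32 and -1.34 in wild type and 0.33 and -1.88 in knockout. Psma1, Psma2, Psma3 and Psma5 lay between 0.18 and 0.43 in wild type and between 0.51 and 0.59 in knockout, and of these 4 Psma2 passed 1.5-fold, in the knockout. A dim second probe set of Psma1, with 172.1 and 126.7 in gland and 12.4 and 6.9 in tumor, went the other way, at -2.33 and -2.17. Psma5 was the alpha subunit furthest below 0 in the tumor genotype comparison, at -0.07.

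The structural beta subunits Psmb1 to Psmb4, which complete the inner rings without a cutting site, had medians of 0.40 and 0.64. Psmb4 was highest among them, with 2813 and 2707 in gland and 5129 and 5439.8 in tumor. Its tumor signals were 1.82-fold those of the gland in wild type and just under 2-fold in knockout (0.86 and 1.00). Psmb3 read 2418 and 1773 in gland and 2992 and 2857 in tumor, so the knockout gland lay below the other 3 arrays, with a difference of -0.44 from the wild-type gland. Psmb2 gave 1633 and 1489.5 in gland and 2309.6 and 1924 in tumor, and its knockout tumor lay below its wild-type tumor, at -0.26. Psmb1 was higher in tumor by 0.26 in wild type and 0.59 in knockout.

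In the gland, 13 of the 14 constitutive core subunits were lower in the knockout, where 3955 of all 8287 genes were. The median of these 14 was -0.19. Probe sets of a gene typically disagreed by 0.23 in that comparison, which is a gauge for single genes and not for a median. The 17 constitutive subunits of the regulatory particle had a median of -0.08 there. Leaving out probe sets whose names mark them as shared between transcripts brought the median over the proteasome genes still measured to 0.00 in the gland. That of the constitutive subunits still measured went from -0.13 to -0.05.

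In the regulatory particle the 6 ATPases, which unfold the substrate and open the gate, were all higher in tumor in both genotypes by their brightest probe sets, with medians of 0.37 and 0.49. Psmc6 had the largest difference, from signals of 1735 and 1635 in gland and 2460.5 and 2865 in tumor. It was higher in tumor by 0.50 in wild type and by 0.80 in knockout. Its other 2 probe sets above the floor gave -0.19 and -0.30 in wild type and 0.23 and 0.25 in knockout, so its direction in wild type depends on the probe set. Psmc4, at 2517 and 1870.4 in gland and 3003 and 3126 in tumor, had the largest negative genotype difference of the ATPases in gland, -0.42, and its tumor signals were almost equal. Its second probe set gave 0.07 in that gland comparison. Psmc5, at 1558 and 1613 in gland and 2199 and 1933 in tumor, was highest in the wild-type tumor and had the largest negative genotype difference of the ATPases in tumor, -0.18. Psmc1, Psmc2 and Psmc3 lay between 0.26 and 0.44 in wild type and between 0.48 and 0.49 in knockout.

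Among the other base subunits, Psmd2 and the brightest probe set of Psmd4 stood apart from the ATPases beside them, and Psmd1 did not. Psmd2, a scaffold of the base, read 2543 and 2308 in gland and 2141 and 2187 in tumor and was lower in tumor, with differences of -0.25 and -0.08. Psmd4, a receptor for ubiquitin chains, read 2128 and 1836 in gland and 2112 and 1851 in tumor and differed by -0.01 and 0.01, while its second probe set gave 0.48 and -0.01. Psmd1, the other scaffold, read 1099 and 1273 in gland and 1667 and 1759.8 in tumor and was higher by 0.59, just past 1.5-fold, and by 0.46. In this group, then, 1 of 3 members was higher in tumor in both genotypes by more than 0.1, where all 6 ATPases were.

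The lid, which cuts ubiquitin off the substrate, spread more widely than the other groups of the regulatory particle in wild type, from -0.37 to 1.75. Psmd7, the partner of the lid's deubiquitinase, had signals of 453 (gland) and 1591 (tumor) in wild-type mice and 618 (gland) and 1288 (tumor) in knockout mice. Both tumor arrays were above both gland arrays, 3.37-fold in wild type and 2.04-fold in knockout, and Psmd7 had the largest positive difference of all proteasome genes in wild type. Psmd8, a lid subunit, read 1054 and 1354 in gland and 2732 and 2531 in tumor, which is 2.55-fold and 1.85-fold higher in tumor. In Psmd7 and Psmd8 alike the wild-type gland was the lowest array and the wild-type tumor the highest. Psmd14, the deubiquitinase itself, was higher by 0.51 and 0.73, and Psmd6 by 0.75 and 0.85.

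Other lid subunits were flat or lower in tumor. Psmd11 read 3217 and 2979.9 in gland and 2559.5 and 2446 in tumor and was lower in tumor in both genotypes, at -0.33 and -0.28. Of its other 3 probe sets above the floor, 2 were lower as well and 1 was higher, by 0.47 and 0.43. Psmd12 differed by 0.01 and 0.13. Psmd3 read 1138 (gland) and 875 (tumor) in wild-type mice and 1065 (gland) and 1285 (tumor) in knockout mice, lowest in the wild-type tumor and highest in the knockout tumor. Its genotype difference in tumor was 0.54 (1.45-fold), next to Psmb9 the largest among the proteasome genes by their brightest probe sets. Its difference of tumor from gland was -0.37 in wild type and 0.26 in knockout. Psmd13 read 1086 and 734 in gland and 1277 and 1291 in tumor, with the knockout gland alone low. It had the largest negative genotype difference in gland of all proteasome genes, -0.55 (1.46-fold lower), and its second probe set gave -0.15.

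The 3 chaperones of base assembly that the symbol rule caught, Psmd5, Psmd9 and Psmd10, were all higher in tumor. Psmd10 (gankyrin), which also binds the cell cycle kinase Cdk4, read 411 and 422 in gland and 782 and 749 in tumor, a difference of 0.88 and 0.79. Psmd9 read 318 and 269.7 in gland and 536 and 564 in tumor, with 0.70 and 0.99. Psmd5 read 606 and 536 in gland and 911 and 849 in tumor, and its differences of 0.57 and 0.64 lay just below and just above 1.5-fold. Their genotype differences stayed between -0.22 and 0.07.

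Of the activators, Psme1, the alpha subunit of the interferon-inducible cap, read 2686 (gland) and 3715 (tumor) in wild-type mice and 2704 (gland) and 3953 (tumor) in knockout mice. It was higher in tumor by 0.46 in wild type and 0.54 in knockout, and under 1.5-fold in both. Its genotype differences were 0.01 in gland and 0.09 in tumor, and in tumor against gland its values lay nearer to the median of the constitutive subunits, given below, than to Psmb8 and Psmb9. The 1 probe set for Psme2, its partner in the cap, also names Psme2b, so it falls outside the rule and its value is not given under either name. Psme3, the nuclear activator, was dim at 213 and 166 in gland and 393 and 309 in tumor, higher in tumor by 0.80 and 0.80. A second probe set of Psme3 went the other way, with signals of 279 and 236 in the glands and 70.0 and 80.2 in the tumors (-1.65 and -1.29), so the direction for Psme3 is not settled. Psme4, a nuclear cap, read 1288 and 1395 in gland and 1275 and 1459.6 in tumor and differed by -0.01 and 0.06. Its other 2 probe sets gave -0.42 and -0.55 in wild type and 0.48 and -0.83 in knockout. Between the tumors all 3 probe sets of Psme4 were higher in the knockout, by 0.19 for the brightest and by 0.70 and 0.29 for the others. Psmf1, known as an inhibitor of the core in vitro, read 253 and 263 in gland and 405 and 389 in tumor, with 0.63 and 0.52. The other 2 probe sets of Psmf1 above the floor gave 0.49 and -0.22 in wild type and -0.05 and -0.07 in knockout.

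The 2 genes that the symbol rule caught without being subunits behaved differently from each other. Psmc3ip, a partner of the meiotic recombinase, read 58.6 and 57.7 in gland and 161 and 207 in tumor, and only its knockout tumor array reached the floor. It was higher in tumor by 1.13 and 1.46. Psme3ip1, which binds Psme3, read 754 and 755 in gland and 798 and 775 in tumor, almost level over the 4 arrays.

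**Figure D3:**
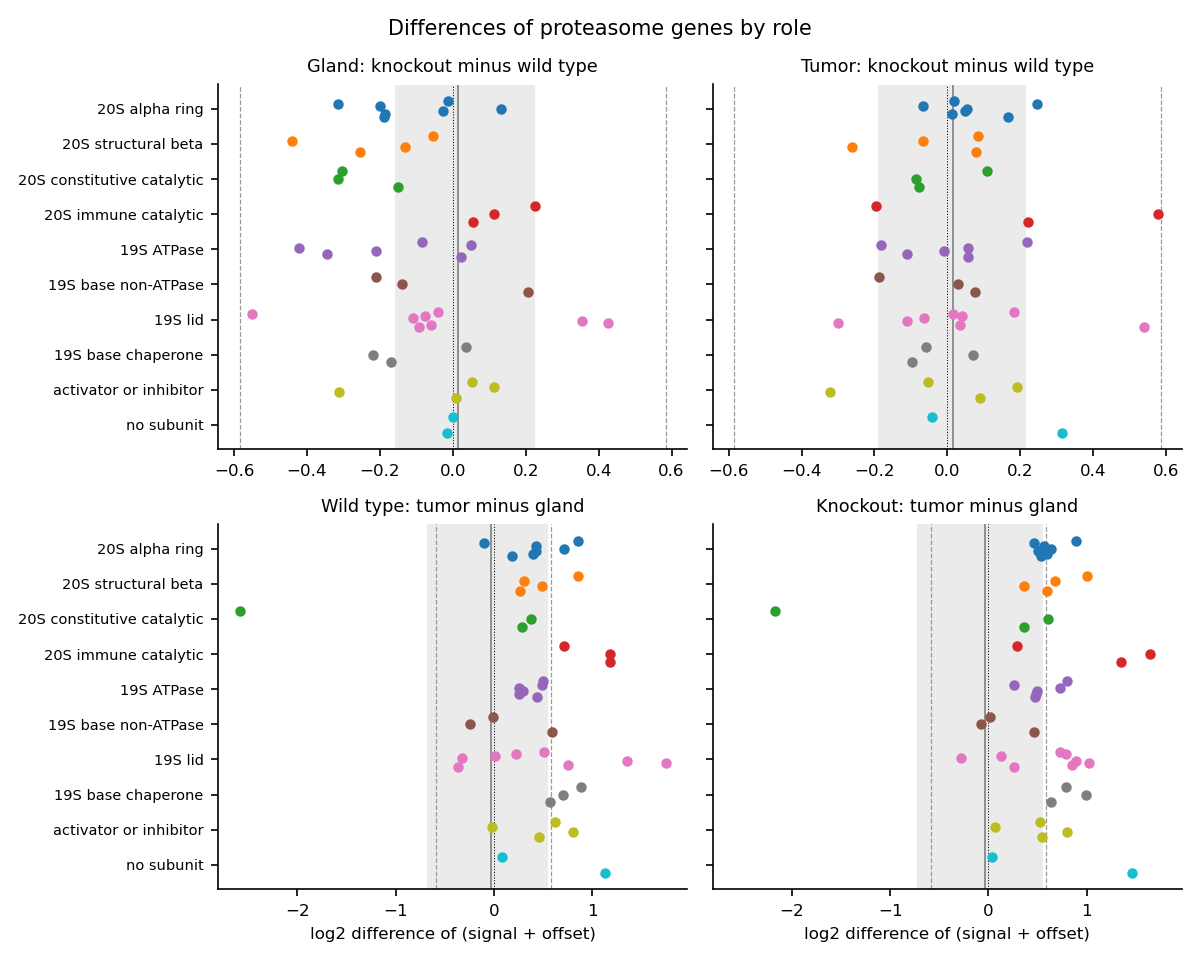
Log2 difference of each proteasome gene (points, 43 per panel) by role in the 4 comparisons; the shaded band is the middle 50% of all 8287 genes, the solid grey line their median, the dotted line 0 and the dashed lines 1.5-fold. In both lower panels most points lie to the right of 0 with Psmb7 far to the left, while in both upper panels no point passes the dashed lines.

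The 31 constitutive subunits of both particles had a median of 0.38 in wild-type tumor against gland and 0.54 in knockout, and 0.39 and 0.55 without Psmb7. The 3 immune catalytic subunits had 1.18 and 1.35, but Psmb10 in the knockout, at 0.29, lay below the constitutive median. Past 1.5-fold, 7 of the 31 constitutive subunits were higher and 1 lower in wild type (23.6% and 27.4% of all genes), and 14 were higher and 1 lower in knockout (23.4% and 28.7%). In wild type the count of constitutive subunits therefore lay near the share of all genes that were higher. Several members sat close to the threshold. In wild type Psmd1 was just past 1.5-fold and Psmd5 at 1.48. In the knockout Psma2, Psmb1 and Psmb6 lay between 1.51 and 1.52, and Psma1, Psme1 and Psma5 between 1.45 and 1.48.

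Across the 43 genes the tumor-against-gland differences of the 2 genotypes, which share no array, had a Pearson r of 0.91 and a Spearman rho of 0.77, and 39 genes had the same sign. Without Psmb7 r was 0.80 and rho 0.76 over 42 genes. These values are across genes, which share arrays and are not replicates. The genotype differences in gland and in tumor, which also share no array, had r 0.01 and rho 0.10, and 18 of 43 genes had the same sign.

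**Figure D4:**
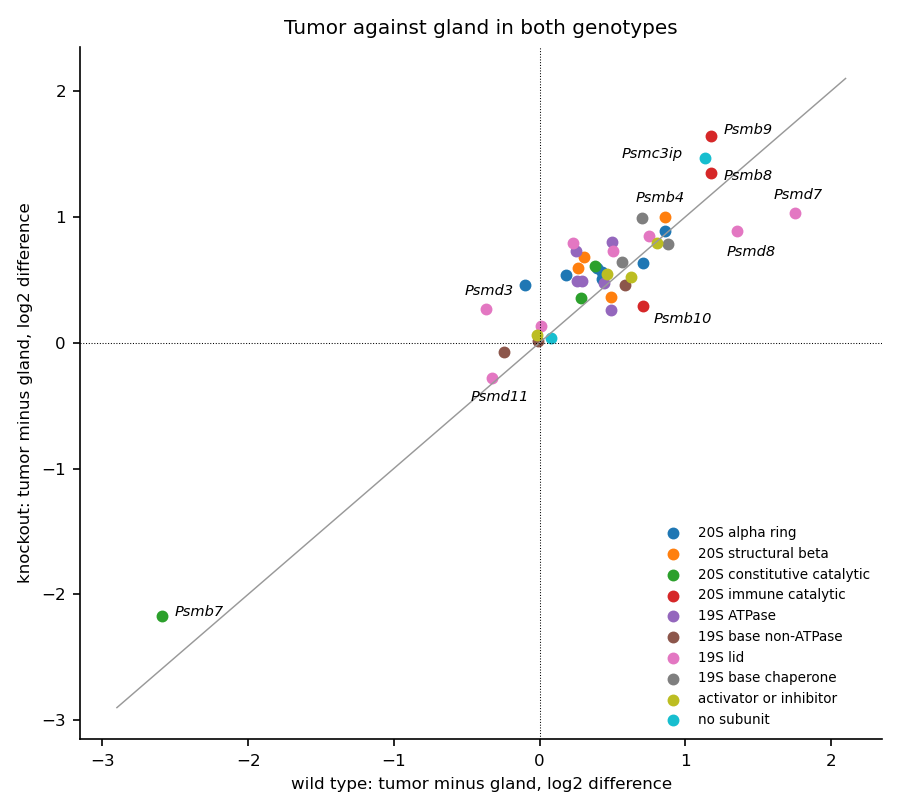
Log2 difference of tumor from gland in wild type (x) and knockout (y) for the 43 proteasome genes, coloured by role, with the line of equal values; each axis is a difference of 2 arrays. Psmb9 and Psmb8 lie at the upper right, Psmb7 alone at the lower left, and Psmd7 and Psmd8 below the line.

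Probe sets of the same gene did not always go the same way. In 16 genes 2 or more probe sets reached the floor, and signs differed within 8 of these 16 genes in the gland genotype comparison, 9 in the tumor genotype comparison and 8 in each tumor-against-gland comparison. For 14 genes whose 2 brightest probe sets could be set side by side, they disagreed by a median of 0.30 in gland genotype, 0.13 in tumor genotype, 0.46 in wild-type tumor against gland and 0.35 in the knockout. Over 2375 genes of the whole array these values were 0.23, 0.17, 0.47 and 0.44. For tumor against gland the 2 brightest agreed in sign for 10 of 14 genes in wild type and 11 in knockout. The second probe set of Psmb4 gave -0.67 and -0.05, against 0.86 and 1.00 for the brightest. That of Psmb3 gave 1.33 and 1.29, against 0.30 and 0.68. Psma7 held in both, with 1.01 and 0.85 from its second probe set. Of all 80 probe sets 65 reached the floor, and of these 47 were higher in tumor than in gland in wild type and 52 in knockout.

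**Figure D5:**
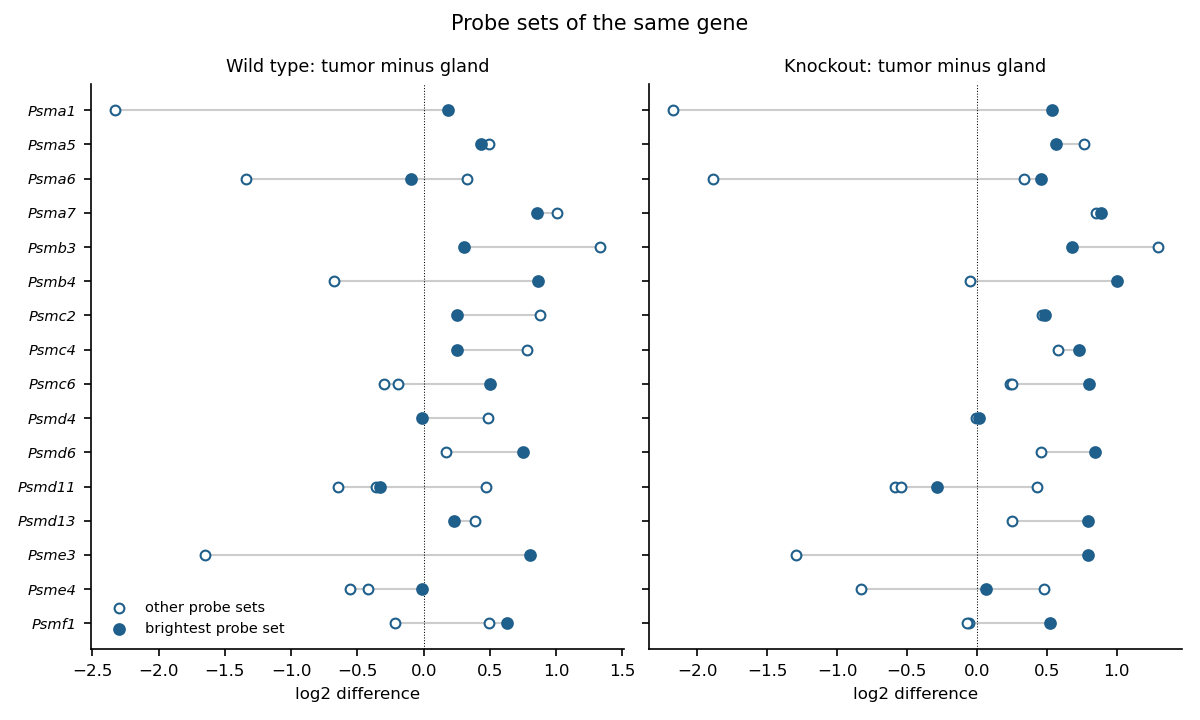
Log2 difference of tumor from gland for every probe set above the floor in the 16 proteasome genes with 2 or more (filled point, the brightest; open points, the others; grey line, their range). Psma7 and Psma5 keep 1 sign in both panels, while Psma1, Psma6 and Psme3 hold probe sets on both sides of 0.

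Genes that work with the proteasome were taken from 4 lists. Of 15 genes for assembly and associated factors, 14 were measured, all above the floor, with medians of 0.22 in wild-type tumor against gland and 0.51 in the knockout. Past 1.5-fold 3 were higher in wild type and 5 in knockout, and none lower (background 23.6% and 23.4% higher, 27.4% and 28.7% lower). Usp14, a deubiquitinase on the base, had the largest difference in wild type, from 484 and 618 in gland and 1010.0 and 1133 in tumor (1.02 and 0.85). Txnl1, a thioredoxin that rides on the regulatory particle, had the largest in the knockout, 0.90 (0.30 in wild type). Zfand2a was second in wild type, at 0.80 (0.27 in knockout). The dedicated core chaperones Psmg1, Psmg2, Psmg3 and Psmg4 were higher by 0.24, 0.32, 0.62 and 0.15 in wild type and by 0.67, 0.75, 0.80 and 0.21 in knockout. Of the 14 measured, 11 were higher in wild type and 12 in knockout (48.2% and 48.3% of all genes). Ube3c was the lowest, at -0.49 and -0.39. Pomp, the chaperone of beta ring assembly, was higher by 0.48 and 0.53.

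Of 17 genes for ubiquitin supply and shuttling 10 were measured, with medians of -0.22 and -0.09 in tumor against gland. Past 1.5-fold none was higher and 4 lower in wild type, and 1 higher and 3 lower in knockout, beside 23.6% of all genes higher and 27.4% lower in wild type and 23.4% and 28.7% in knockout. Nfe2l1, the transcription factor that drives proteasome genes when degradation falls short, read 2002 and 1955 in gland and 1263 and 1147 in tumor. Its tumor signals were below its gland signals, with differences of -0.65 and -0.76. Ubqln4, a shuttle for ubiquitinated proteins, read 933 and 794 in gland and 384 and 453 in tumor (-1.22 and -0.77), and Nploc4, a cofactor of the unfoldase Vcp, was also lower, at -0.92 and -0.70. Bag6, a chaperone of mislocalised proteins, was lower in tumor, at -0.71 in wild type and -0.17 in knockout. It was the 1 gene of this list past 1.5-fold between the tumors, at 1.57-fold higher in the knockout.

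In the peptide loading list, 8 of 9 genes were measured, with medians of 0.46 in wild type and 0.68 in knockout. Past 1.5-fold 3 were higher in wild type and 5 in knockout, and none lower, beside the same shares of all genes. Pdia3, which folds class I heavy chains, read 1878 and 2304 in gland and 4972 and 4832 in tumor (1.39 and 1.06). Tapbp, which tethers class I molecules to the transporter, was higher by 0.98 and 0.76, and Tap1 by the values given above. Tap1 was the 1 gene of the list past 1.5-fold between the tumors.

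Of 20 interferon response genes 18 were measured and 17 were above the floor. Their medians were 0.20 in gland genotype, 0.17 in tumor genotype, 0.89 in wild-type tumor against gland and 0.77 in the knockout. In each tumor-against-gland comparison 12 were higher past 1.5-fold and 1, Stat2, lower, beside 23.6% and 27.4% of all genes in wild type and 23.4% and 28.7% in knockout. Cxcl10, a chemokine induced by interferon-gamma, read 86.3 and 168 in gland and 428 and 854 in tumor, and it was the gene of the list with the largest difference in both. Usp18, which removes the ubiquitin-like Isg15, followed with 1.55 and 1.47. Irf1, a transcription factor known to act on Psmb9 and Tap1, read 1219 and 1112 in gland and 1067 and 1294 in tumor and differed by -0.19 and 0.21. Between the genotypes 3 genes of the list were higher past 1.5-fold in the knockout gland, where 5.84% of all genes were, and 2 were higher and 1 lower in the knockout tumor, where 6.71% and 5.37% of all genes were.

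Markers of leukocytes, cells known to carry much immunoproteasome, went in more than 1 direction. The 8 measured markers of T and NK cells summed to 3399.6 and 4823 in gland and to 1182 and 1401 in tumor, and all 7 above the floor were lower past 1.5-fold in both tumors, where 27.4% and 28.7% of all genes were. The 7 markers of B and plasma cells summed to 2846 and 7263 in the glands and 879.6 and 1271 in the tumors, and all 7 were lower past 1.5-fold in both tumors and higher past 1.5-fold in the knockout gland, where 5.84% of all genes were. The 11 markers of macrophages, dendritic cells and neutrophils summed to 12468 and 16942 in the glands and to 21742 and 15539.9 in the tumors. Of the 10 above the floor, 8 were higher in tumor in wild type, 7 of them past 1.5-fold, and in the knockout 4 were higher, 2 of them past 1.5-fold, and 4 were lower past 1.5-fold (23.6% of all genes higher in wild type, 23.4% higher and 28.7% lower in knockout). None of the markers was at 0 on any array. The part of leukocytes in the immune subunit signals was not tested. On the knockout tumor array Psmb8 and Psmb9 were higher than on the wild-type tumor array, and Psmb10 was lower. The sums of the T and NK list and of the B and plasma cell list were higher there, and that of the macrophage list was lower. Of the 7 T and NK markers above the floor 6 were higher and Cd8a was lower. Of the 7 B and plasma cell markers 5 were higher and Cd22 and Blk were lower (51.8% of all genes were higher). Jchain had the largest rise in that list, from 125.5 to 475.6. In the T and NK list and the B and plasma cell list only Cd3d, Thy1, Ighm and Jchain reached the floor on a tumor array. The other markers counted here passed it only through the glands. Their tumor signals were low, such as 2.5 and 9.2 for Cd79a, so their direction between the tumors is not settled.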

How the data were processed

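The authors deposited a linear intensity for each probe set on each of the 4 Affymetrix mouse arrays, made from cRNA that per the labels' protocols was prepared from equal RNA of 5 mice. The software behind the intensities was not given in the sources used here. Each array's mean without its lowest and highest 2% was 500, which shows a scaling by trimmed mean. Intensities were used as deposited, as log2(signal + 27.3), and 0 columns lacked a sample. Gene names came from the platform annotation, with symbols updated by gene identifier for 20364 probe sets. Of 22690 probe sets 20393 had 1 symbol, 691 several and 1606 none, and only the first were used. A gene was compared where its brightest probe set reached 168.1 on at least 1 array. The members, lists, thresholds and alternatives were chosen with earlier results of these data known. Signals on all arrays were to be named for the catalytic subunits and Psme1 to Psme3, and for the members of each role with the largest differences either way. Of the other lists the 3 largest differences per comparison were to be named, and Pomp, Psmg1, Psmg2, Psmg4, Irf1 and Stat2 were added after their values were seen. The planned alignment of proteins was not made, and no protein sequence was used here. The procedure was tested on simulated data. Python 3.11.15, pandas 2.3.3 and limma 3.58.1 in R 4.3.3 (quantile and cyclic loess alternatives) were used. The alternatives were other offsets, scalings, floors and choices of probe set.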

Additional observations from a re-analysis of the deposited data

Results flagged for a closer look

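In Psma6, a gate subunit of the core, the genotype difference had opposite signs in the 2 tissues. The knockout was lower in the gland, at -0.31, and higher in the tumor, at 0.24, so the knockout-minus-wild-type difference of tumor from gland was 0.56. A second bright probe set of Psma6 gave 0.11 and 0.12 in those comparisons, with no change of sign. In Psmd7, the partner of the lid's deubiquitinase, the knockout was higher in the gland, at 0.42, and lower in the tumor, at -0.30, a difference of differences of -0.72. The difference between the tissues was not tested for either gene, since each value rests on 1 array per group.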

How the results depend on the processing

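Leaving out a replicate was not possible, and no paired analysis was possible because each group had 1 array. By the labels given to single-gene values, the choice of probe set moved the most. The median over a gene's probe sets moved 20 and reversed 2, leaving out shared probe sets moved 13, and quantile normalization and cyclic loess moved 3 and 2. Centring was labelled as moving none, yet it shifted the genes of a comparison together. In the gland comparison it took Psma4 from 0.13 to -0.09. Scaling moved the medians. Counts here are past 1.5-fold. With arrays centred on a common median, after which the median of all genes was -0.21, -0.01, 0.11 and 0.31 in place of 0.01, 0.01, -0.03 and -0.04 (gland genotype, tumor genotype, wild-type and knockout tumor against gland), the proteasome median became -0.31 in gland genotype, 0.56 in wild-type and 0.89 in knockout tumor against gland. Those of the constitutive subunits became -0.36, 0.50 and 0.86, the lower count in the gland 3, and the higher count in the knockout tumor 35. Quantile normalization gave medians of 0.44 (proteasome) and 0.41 (constitutive) in the knockout and 1 gene lower in the gland. Cyclic loess gave 0.30 and 0.22 in wild type and 0.33 and 0.31 in the knockout. With the median over a gene's probe sets, the genes lower in tumor numbered 3 in wild type and 4 in knockout. Psme3 turned to -1.31 and -0.85. Psma1 went from 0.18 and 0.54 to -2.33 and -2.22, and Psma6 from -0.10 and 0.46 to -0.51 and -0.77. Psma1 and Psma6 were not past 1.5-fold at first, so they are not in the count of differences past it below. Without shared probe sets 2 were lower in each genotype, and the constitutive median in wild type was 0.49. With no floor 1 gene was lower in the knockout tumor than in the wild-type tumor. The cause of these shifts was not tested. Of 328 values for the 38 gene differences past 1.5-fold, 295 stayed past it and 2 reversed, both in Psme3. Psmb7 ranged from -2.69 to -2.39 in wild type and from -2.35 to -1.85 in knockout, Psmb9 from 1.07 to 1.30 and from 1.49 to 1.97, and Psmb8 from 1.04 to 1.30 and from 1.12 to 1.67. The number of arrays limits the precision of each value.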
